A study of Mus musculus with 2 samples.

Results

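The 10 genes described here encode ligands and receptors of the TGF-beta and BMP branches of one signalling family: Tgfb1, Tgfb2, Tgfb3, Tgfbr1, Tgfbr2, Bmp2, Bmp4, Bmp7, Bmpr1a and Bmpr2. They were chosen by name, with earlier results of these data known. Every probe that the array design pairs with one of their RefSeq transcripts was used. This gave 14 probes at 32 spots for 10 of the 20660 genes that could be named on the array. Pieces of ovaries of 2-week-old mice were kept in organ culture for 3 days with ligands of the tachykinin receptors TACR1, TACR2 and TACR3, the G protein-coupled receptors for substance P and its relatives. One group received an agonist of each receptor, which the study names for such cultures as the modified substance P [Sar9, Met(O2)11]-SP (TACR1), GR-64349 (TACR2) and a succinylated substance P fragment (TACR3). The other received an antagonist of each, with GR-94800 against TACR2, SB218795 against TACR3 and a nonpeptide compound against TACR1, and every ligand was used at 1 μM. RNA of each group was labelled with the dye Cy3 and hybridised to 1 single-colour oligonucleotide array, and both arrays lay on the same slide. The mouse strain and the number of ovaries behind each RNA are not given in the sources used here, and no untreated array was analysed. A difference between the arrays can therefore lie in the agonist-treated tissue, in the antagonist-treated tissue or in both. With 1 array per group no test was made, and the values below describe these 2 arrays.

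TGF-beta and BMP ligands are secreted dimers that bring together a pair of type I and a pair of type II receptor kinases. The type II receptor phosphorylates the type I receptor, which then phosphorylates SMAD2 and SMAD3 in the TGF-beta branch or SMAD1, SMAD5 and SMAD9 in the BMP branch, and these enter the nucleus with SMAD4. TGF-beta is stored in the matrix in a latent form and has to be released, whereas BMPs are held in check by secreted antagonists such as noggin and gremlin. In the ovary the family is known for passing signals between oocyte, granulosa cells, theca cells and stroma before follicles depend on gonadotropins.

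Of the 14 probes, 13 were well above background on both arrays by the criterion of the image analysis software, which compares a spot with the spread of the background. A log2 ratio below is the value of the agonist array minus that of the antagonist array, after each signal had been divided by the 75th percentile of the signals on the same array (672 for the agonist array, 569 for the antagonist array). This scaling moved all ratios by -0.24. Of all 55681 probes other than controls, 33073 passed this criterion on both arrays. Over these, the ratio had a median of -0.10, a 5th percentile of -0.58 and a 95th percentile of 0.72. The 8 spike-in probes, for RNA added during labelling, had a median of -0.03 before any scaling. As a check of the tissue, 6 of 6 oocyte markers and 6 of 6 granulosa cell markers were well above background on both arrays, among them Zp3 of the egg coat and Fshr, the receptor for follicle-stimulating hormone. The same held for 15257 of all 20660 named genes. In an extract of whole ovary pieces, fewer cells of a type and less RNA per cell cannot be told apart.

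All 8 probes for the TGF-beta branch had a log2 ratio above 0, between 0.16 and 0.90 with a median of 0.36, whereas of the 5 measured BMP probes 2 did, with a range from -0.20 to 0.33 and a median of -0.06. By comparison, 36.9% of all probes measured on both arrays had a ratio above 0. The 8 TGF-beta probes stand for 5 genes, since Tgfb2, Tgfbr1 and Tgfbr2 have 2 each. By the brightest probe of each gene, 5 of 5 TGF-beta genes were above 0, with a median of 0.32. The same held for 2 of 5 BMP genes and for 37.7% of all genes measured on both arrays. The TGF-beta probes stayed above 0 in all 11 settings tried, except that the dimmer Tgfbr1 probe was at -0.04 with the normexp background correction. The number of BMP probes above 0 changed with the scaling, from 1 with scaling on the median to 5 without scaling or with scaling on the spike-in probes. Set against the median of all probes, 8 of 8 TGF-beta probes and 4 of 5 BMP probes lay above it in every setting. A setting that shifts all ratios alike cannot change this count, so most settings are no check of it. Of the 4 BMP probes, Bmpr1a lay above the median by only 0.003 with the 75th percentile scaling, with an error of 0.20. With the 75th percentile scaling only the receptor gene Tgfbr2 passed a 1.5-fold difference: 2 of the 13 measured probes, both of Tgfbr2, were at least 1.5-fold higher on the agonist array, where 6.95% of all probes were. None of the 13 was at least 1.5-fold lower (4.90% of all probes), at least 2-fold higher (2.69%) or at least 2-fold lower (0.705%). The plot of signals and the plot of ratios show these probes in the order ligands and receptors of each branch.

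**Figure D1:**
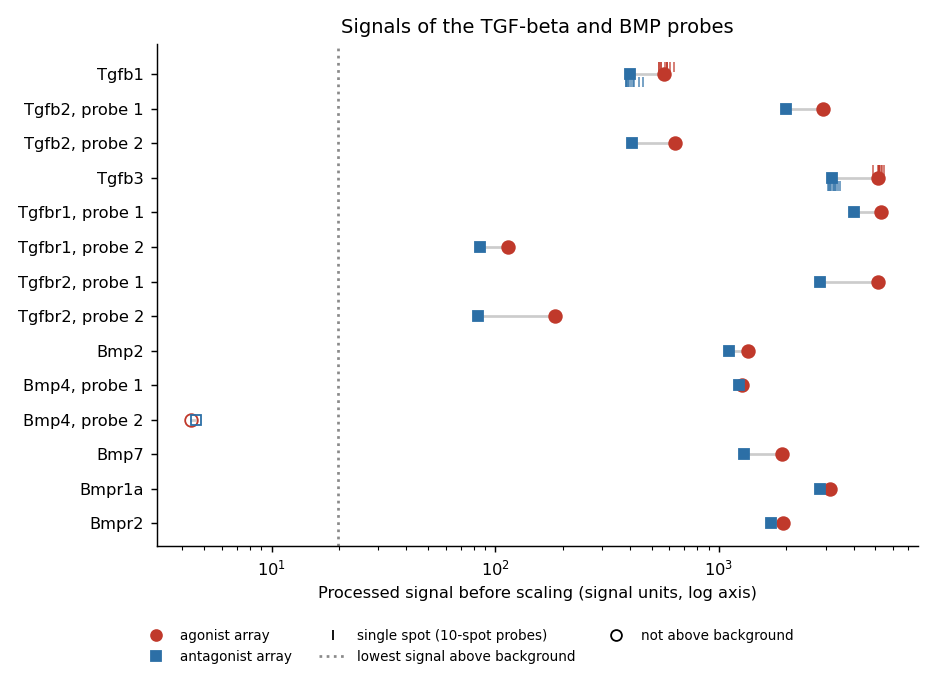
Processed signals of the 14 probes before scaling, on a log axis in signal units; circles are the agonist array, squares the antagonist array, ticks the single spots of the probes printed at 10 spots, and the dotted line is the lowest signal well above background on the antagonist array (19.9). Before scaling the agonist signal is the higher one for 13 probes, and where a gene has 2 probes, probe 1 is the brighter; probe 2 of Bmp4 lies below background on both arrays.

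**Figure D2:**
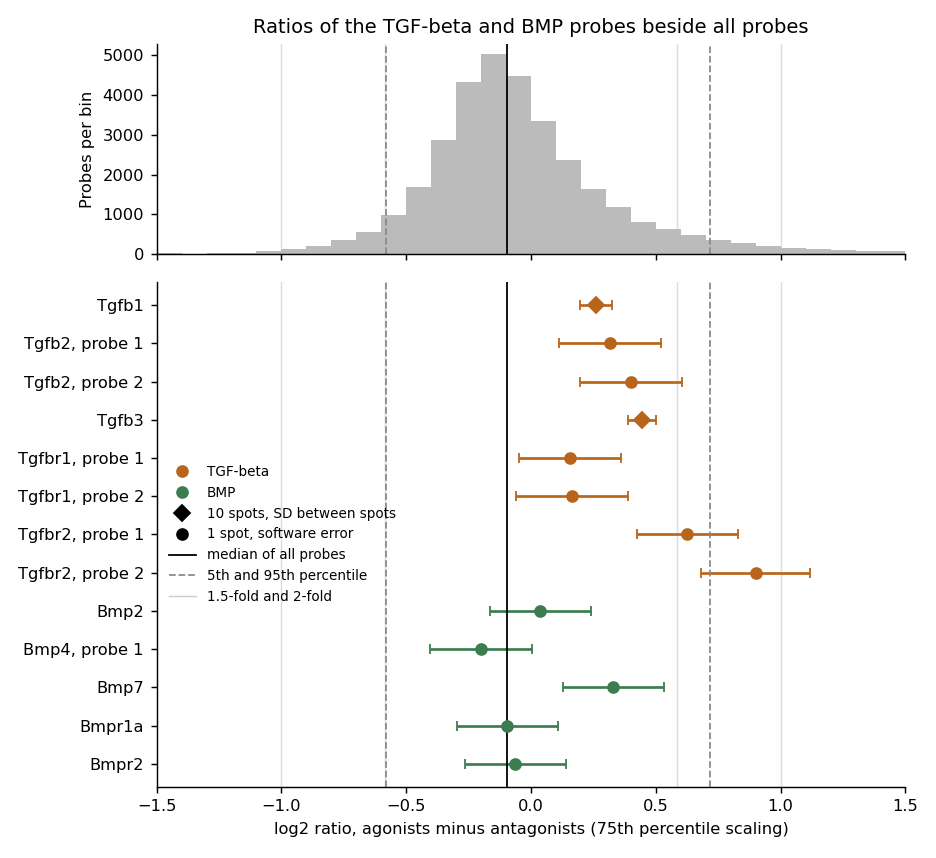
The upper panel is a histogram of the log2 ratio of all 33073 probes measured on both arrays; the lower panel gives the 13 measured probes, with the SD between spots (diamonds) or the software's error estimate (circles) as bars. Every TGF-beta probe lies to the right of the median of all probes (-0.10), and probe 2 of Tgfbr2 (0.90) lies beyond the 95th percentile (0.72); under other settings 4 of the 5 BMP probes, all but Bmp7, change sign.

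The first of the TGF-beta ligands, Tgfb1, is the form best known for matrix production and for restraint of immune cells. Its probe, A_51_P390715, was printed at 10 spots, of which 9 on each array remained after removal of outliers. The kept spots lay between 537 and 604 signal units with the agonists, with a median of 573, and between 385 and 439 with the antagonists, with a median of 394. The log2 ratio was 0.26 ± 0.06 (SD over 9 spots), or 1.20-fold. Every kept agonist spot was brighter than every kept antagonist spot, also after scaling, where the gap between the nearest spots was 0.05 on the log2 scale. With the 1 outlier of each array put back, at 629 and 458 signal units, the scaled spots of the arrays overlapped. This SD covers the printing and reading of spots and not the spread between ovaries.

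Tgfb3, a ligand with a large part in mesenchymal and epithelial fusion events during development, was also read at 10 spots (probe A_51_P124748), of which 8 per array were kept. With the agonists they lay between 4859 and 5339 with a median of 5186, and with the antagonists between 3082 and 3344 with a median of 3197. The log2 ratio was 0.45 ± 0.06 (SD over 8 spots), or 1.36-fold, at the 90.2th percentile of all probes. Its spots did not overlap between the arrays after scaling, with a gap of 0.30, and they did not overlap with the outliers put back either. Of the 290 probes with 10 spots measured on both arrays, 24.8% had every agonist spot above every antagonist spot, so such a separation was common at this precision of spots.

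Tgfb2, the ligand with roles in heart, eye and epithelial to mesenchymal transitions, had 2 probes at 1 spot each. Probe A_65_P10913 read 2921 on the agonist array against 1983, a log2 ratio of 0.32 with a software error of 0.20. Probe A_51_P317640 read 638 and 409, a log2 ratio of 0.40 with the same error. The agonist signal was the higher one at both probes, and the probes differed by 0.08, less than their combined error of 0.29. The 150 bases before the Tgfb2 start site are shown because, of the 8 promoter windows found for 7 of the 10 genes, it is the one with a TATA box, TATAAA, which begins at position -31. The window lies at chr1:186705990-186706139 on the minus strand of GRCm38.p6, from RefSeq, has 51.3% G and C, and carries a CCAAT box at position -130. Capitals mark these motifs, and positions count back from the start site.
Tgfb2: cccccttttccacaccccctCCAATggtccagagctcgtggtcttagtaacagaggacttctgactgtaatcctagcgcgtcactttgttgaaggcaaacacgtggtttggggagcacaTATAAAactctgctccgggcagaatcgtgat

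Tgfbr2 encodes the type II receptor that binds TGF-beta directly and starts the phosphorylation relay, and it had the largest ratios among the 10 genes. Probe A_51_P450573 read 5138 on the agonist array against 2815, a log2 ratio of 0.63 with an error of 0.20, or 1.54-fold. Probe A_55_P2107288 read 185 and 84.0, a log2 ratio of 0.90 with an error of 0.22, or 1.87-fold. Both probes were higher on the agonist array, at the 93.7th and 96.7th percentiles of all probes. Their ratios differed by 0.27, within a combined software error of 0.30. The measured SD between spots was smaller, with a median of 0.07 over the 290 probes at 10 spots. The 2 probes are thus not shown to agree in size. The brighter probe lay just beyond 1.5-fold and fell below it with scaling on the median, where its log2 ratio was 0.57. The dimmer probe ranged from 0.49 with normexp correction to 1.18 with scaling on the spike-in probes, so its passing of either fold depended on the setting. The promoter window of Tgfbr2 is shown as that of the gene with the highest ratio. It lies at chr9:116175364-116175513 on the minus strand, has 66% G and C and no TATAAA, and carries CCAAT at position -85 and its reverse complement at position -68, in capitals.
Tgfbr2: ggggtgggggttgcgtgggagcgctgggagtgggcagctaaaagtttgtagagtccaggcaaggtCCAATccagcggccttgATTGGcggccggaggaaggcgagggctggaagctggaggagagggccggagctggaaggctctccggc

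Tgfbr1 encodes the type I kinase, also called ALK5, that phosphorylates SMAD2 and SMAD3. Probe A_55_P2137206 gave 5277 on the agonist array against 4007, a log2 ratio of 0.16 with an error of 0.20. Probe A_55_P2137211 read 114 and 85.8, a log2 ratio of 0.16 with an error of 0.22. The agonist values were higher at both probes after scaling, by less than the error of 1 spot, and the probes differed from each other by 0.01. Within the TGF-beta receptor pair the type II gene thus had the larger ratio, and no error other than that of single spots is available for this comparison.

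The BMP ligands had ratios on both sides of 0. Bmp7, known from kidney and skeletal development, read 1922 with the agonists against 1293 with the antagonists (probe A_52_P278354), a log2 ratio of 0.33 with an error of 0.20, which was above 0 in 11 of 11 settings. Bmp2, a ligand of bone formation that granulosa cells also make, read 1346 and 1109 (probe A_55_P2041961). Its log2 ratio of 0.04 was smaller than its error of 0.20 and turned to -0.02 with scaling on the median. Bmp4, which in the ovary is known as a product of theca and stroma, read 1265 and 1228 at probe A_55_P2154387, a log2 ratio of -0.20 with an error of 0.20. Before scaling its agonist signal was the higher one, after scaling the lower one, and over the settings its ratio ran from -0.28 to 0.08. The second Bmp4 probe, A_55_P1959022, read 4.38 and 4.59 and was not well above background on either array, so no fold is given for it.

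The BMP receptors were the members nearest to the middle of the array. Bmpr1a, the type I receptor also called ALK3, read 3137 with the agonists against 2833 with the antagonists (probe A_52_P17146), a log2 ratio of -0.09 with an error of 0.20. Bmpr2, the type II receptor, read 1937 and 1710 (probe A_51_P419389), a log2 ratio of -0.06 with an error of 0.20. These ratios lay at the 50.4th and 55.3th percentiles of all probes. Over the settings Bmpr1a ran from -0.15 to 0.18 and Bmpr2 from -0.12 to 0.21, so neither had a fixed sign. The order of the genes by ratio was Tgfbr2, Tgfb3, Bmp7, Tgfb2, Tgfb1, Tgfbr1, Bmp2, Bmpr2, Bmpr1a and Bmp4, with the brightest probe for each, and neighbours in this order differed by less than the software error of 1 spot (0.20).

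The promoter window of Bmp4 is shown for contrast, as that of the gene with the lowest ratio. It lies at chr14:46390670-46390819 on the minus strand of GRCm38.p6, has 68% G and C and carries a GC box, GGGCGG, at position -38, in capitals.
Bmp4: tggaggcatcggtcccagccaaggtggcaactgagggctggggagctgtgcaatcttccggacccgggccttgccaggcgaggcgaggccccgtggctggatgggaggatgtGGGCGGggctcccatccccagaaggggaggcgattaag
The sequences used hold 8 windows for 7 of the 10 genes, with 2 start sites for Tgfbr1. Searched on both strands in the 150 bases before the start, TATAAA was found in 1 of the 8 windows against 7.57% of 32851 promoters, CCAAT in 4 against 24.5%, and GGGCGG in 5 against 28.6%. A STAT site, TTCNNNGAA, and a CRE, TGACGTCA, were found in 0 of the 8, against 4.09% and 1.36%. These matches describe the letters of the windows and say nothing about binding in these ovaries.

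**Figure D3:**
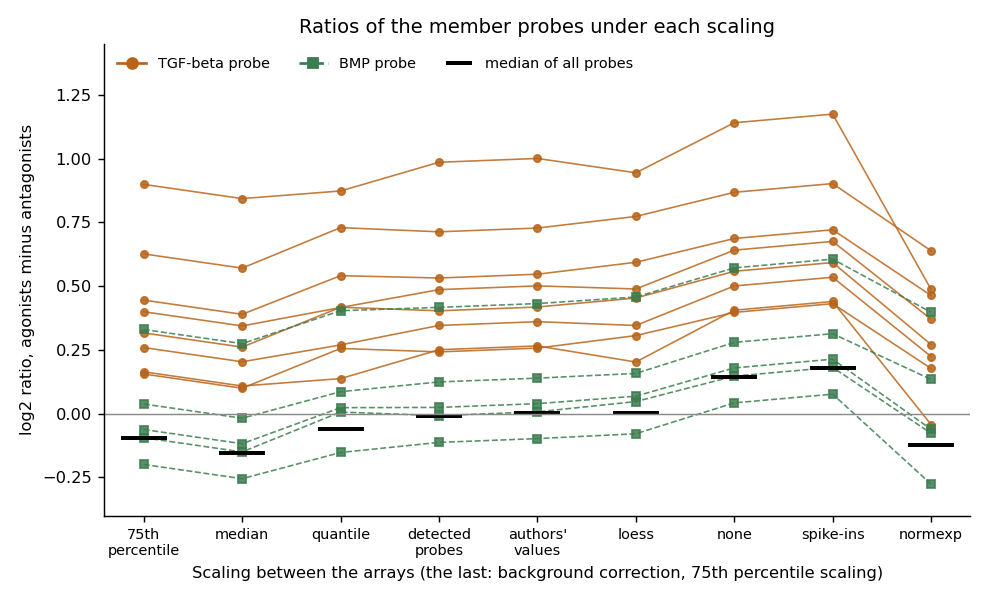
Log2 ratios of the 13 measured probes under 8 ways of scaling the arrays and with the normexp background correction (x axis); lines join the values of a probe, and black bars are the median of all probes. The TGF-beta probes keep above the black bar in each setting, which a shift common to all probes cannot change. Of the BMP probes, 4 cross 0 and Bmp7 stays above it.

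The rest of the pathway was read through 67 genes in 8 lists by role, of which 59 were well above background on both arrays, each by its brightest probe. Among the 59, 12 were higher on the agonist array by 1.5-fold or more and 1 was lower, and 8 were higher by 2-fold or more and 0 lower. Over all 15257 genes measured on both arrays these shares were 9.26%, 4.28%, 4.01% and 0.577%. The lists were drawn up with earlier results of these data known, so the counts cannot show an excess in the pathway. The median log2 ratio was 0.21 over the 10 genes and -0.10 over all genes. The plot of the pathway by role shows the 12 genes, of which 4 are latency and activation genes and 3 TGF-beta targets.

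**Figure D4:**
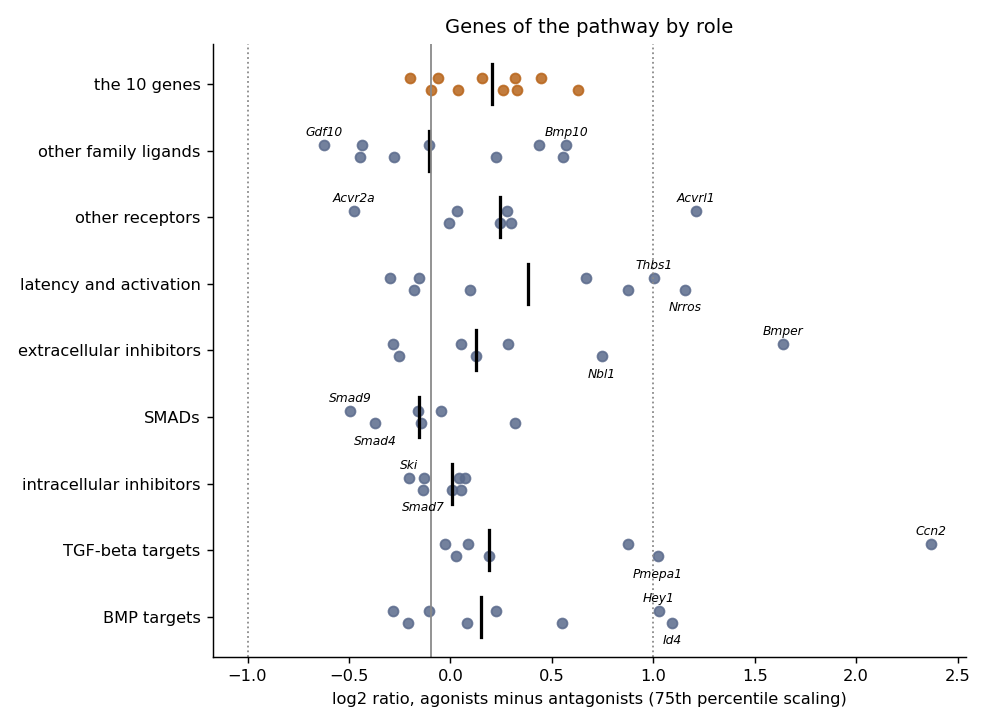
Log2 ratios of the genes of the pathway that were well above background on both arrays, by role (y axis), each by its brightest probe; black bars are list medians, the grey line is the median of all probes (-0.10) and dotted lines mark 2-fold. The latency and activation genes have the highest list median (0.38) and Ccn2 the highest ratio (2.37), while 0 of 6 SMAD genes pass 1.5-fold with this scaling.

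Among 12 other ligands of the family, 9 were measured on both arrays, with a median log2 ratio of -0.10 that turned to 0.14 without scaling. Of these 0 were higher and 1 was lower by 1.5-fold or more. Bmp10, a ligand best known from the heart, read 48.0 and 27.3, a log2 ratio of 0.57 with an error of 0.33. Gdf10, also called BMP3b, read 79.3 and 103, a log2 ratio of -0.62 with an error of 0.23. Bmp8b was well above background on the antagonist array only, at 25.7 against 18.4 with the agonists. Its log2 ratio was -0.72 with an error of 0.45, and no bound is given. Gdf2 and Gdf6 were not well above background on either array. Among 7 other receptors, all measured, the median was 0.24. Acvrl1, the endothelial type I receptor also called ALK1, reached 1412 on the agonist array against 516, a log2 ratio of 1.21 with an error of 0.20, or 2.31-fold. Acvr2a, a type II receptor that activins and BMPs share, read 200 and 234, a log2 ratio of -0.47.

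Of the 10 latency and activation genes 8 were measured on both arrays, with a median of 0.38, and 4 were at least 1.5-fold higher on the agonist array. Nrros, which anchors latent TGF-beta on macrophages and microglia, read 2162 and 821, a log2 ratio of 1.16 with an error of 0.20. Thbs1, the matrix protein thrombospondin 1, which can release active TGF-beta, read 6395 and 2699, a log2 ratio of 1.0. The other 2 past 1.5-fold were the latent TGF-beta binding proteins Ltbp2 at 0.88 and Ltbp4 at 0.67, while Ltbp1 was at -0.18 and Ltbp3 at -0.15. Itgb8 was well above background on the agonist array only, with no usable bound, and Itgb6 on neither.

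Of 9 extracellular inhibitors 7 were measured, with a median of 0.13. Bmper, a BMP-binding protein of endothelial and mesenchymal cells, reached 1069 on the agonist array against 290, a log2 ratio of 1.64 with an error of 0.21, or 3.12-fold. Nbl1, a BMP antagonist of the DAN family, read 22686 and 11449, a log2 ratio of 0.74. The best known BMP antagonist, noggin (Nog), was at 0.13, and Chrd at -0.29. Grem1 was well above background on the agonist array only, with no usable bound, and Sostdc1 on neither.

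The 6 SMADs that carry the signal were all measured, and 0 of the 6 passed 1.5-fold, with a median of -0.15. Smad4, the partner common to both branches, read 5973 and 6527, a log2 ratio of -0.37 with an error of 0.20, and its second probe gave -0.14. Smad9 read 146 and 174, a log2 ratio of -0.50. Smad1 went the other way, at 0.32 with an error of 0.21, and its second probe gave 0.49. Of 8 intracellular inhibitors 7 were measured and 0 passed 1.5-fold. Smad7, which recruits ubiquitin ligases to the receptors, was at -0.13, and Ski, a corepressor of SMADs, at -0.20. Smad6, the inhibitor of the BMP branch, was at 0.04, and Bambi was not well above background on either array. The median of the SMADs turned to 0.09 without scaling and to 0.12 with scaling on the spike-in probes.

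The 7 genes listed as TGF-beta targets were all measured, and 3 of the 7 were at least 1.5-fold higher on the agonist array. Their median, 0.19, was the value of Tsc22d1, and the 3 higher genes lay well apart from the other 4. Ccn2, connective tissue growth factor, reached 5100 on the agonist array against 834, a log2 ratio of 2.37 with an error of 0.20, or 5.17-fold. Pmepa1, a membrane protein that dampens TGF-beta signalling, had a log2 ratio of 1.02 at both of its probes, and Tgfbi, a matrix protein, one of 0.88. Tgif1, Klf10 and Cdkn2b, which are also known to respond to TGF-beta, were at -0.02, 0.03 and 0.09. Ccn2 and Thbs1 are known to respond to other signals too, including YAP and TAZ.

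Of the 8 BMP targets, all measured, 2 passed 1.5-fold, and the median was 0.15. Id4 read 101 and 40.1, a log2 ratio of 1.09 with an error of 0.27, and Hey1, which Notch signalling also drives, read 3128 and 1298, a log2 ratio of 1.03. The classical BMP responders Id1, Id2 and Id3 were at 0.08, -0.28 and -0.10, within 0.20 of the median of all probes.

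Markers of several cell types other than follicle cells were also higher on the agonist array. The 5 measured smooth muscle markers had a median log2 ratio of 0.68, with 5 of 5 at least 1.5-fold higher, from Acta2 at 0.60 to Myh11 at 0.99, and a summed scaled level of 66.6 with the agonists against 41.1 with the antagonists. Such sums, here over the measured markers of a list, are weighted by the brightness of its probes. For the surface epithelium 5 of 5 measured markers were at least 1.5-fold higher, from Upk3b at 0.62 to Krt19 at 1.40, with sums of 35.0 and 16.3. The endothelial markers had a median of 0.88, with 4 of 5 above 0, from Kdr at -0.27 to Cldn5 at 1.07. Their sums were 37.8 and 35.0 with Kdr, the brightest, and 15.4 and 7.92 without it, and a second Kdr probe, at 10 spots, gave 0.38. Macrophage markers had a median of 1.18, with 5 of 5 above 0, from Csf1r at 0.15 to Mrc1 at 1.82. Their sums were 11.6 and 9.01 with Csf1r, the brightest, and 3.29 and 1.48 without it. Dimmer probes of Csf1r gave -0.09 and 0.04, so its sign depended on the probe. Stroma markers had a median of 0.38, with 5 of 6 above 0, from Lum at -0.30 to Pdgfra at 0.60, and sums of 403 and 337. Des and Tek passed the background criterion with the agonists only, at least 2.63-fold and 4.10-fold higher there.

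The lists of follicle cells had medians nearer to that of all probes. The 6 granulosa markers had a median of -0.30, from Fshr at -0.73 to Cyp19a1 at 0.37, with sums of 49.9 and 50.2, or 18.3 and 24.9 without Foxl2, the brightest. Foxl2 gave 0.32 at its brightest probe and -0.37 at a much dimmer one. The 4 measured theca and steroidogenic markers had a median of -0.10, from Cyp17a1 at -0.41 to Cyp11a1 at 0.79, with sums of 85.1 and 84.1, or 24.9 and 31.8 without Hsd3b1, the brightest, and Lhcgr was not well above background on either array. The 6 oocyte markers had a median of 0.17, from Zp3 at -0.13 to Figla at 0.59, with sums of 65.7 and 66.8. Of tissue next to the ovary, the adipocyte markers Adipoq and Lep were not well above background on either array and Plin1 was at 0.59. The cilia markers of the oviduct ran from Ccdc39 at -0.56 to Tekt1 at 2.47, with Dnah5 not well above background on either array. The genes Tgfb1, Tgfb2, Tgfb3, Tgfbr1 and Tgfbr2, summed, stood at 28.3 with the agonists against 21.8 with the antagonists, a 1.30-fold difference, and the 5 BMP genes at 14.3 and 14.4. The part of these cell types in the ratios of the 10 genes was not tested.

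**Figure D5:**
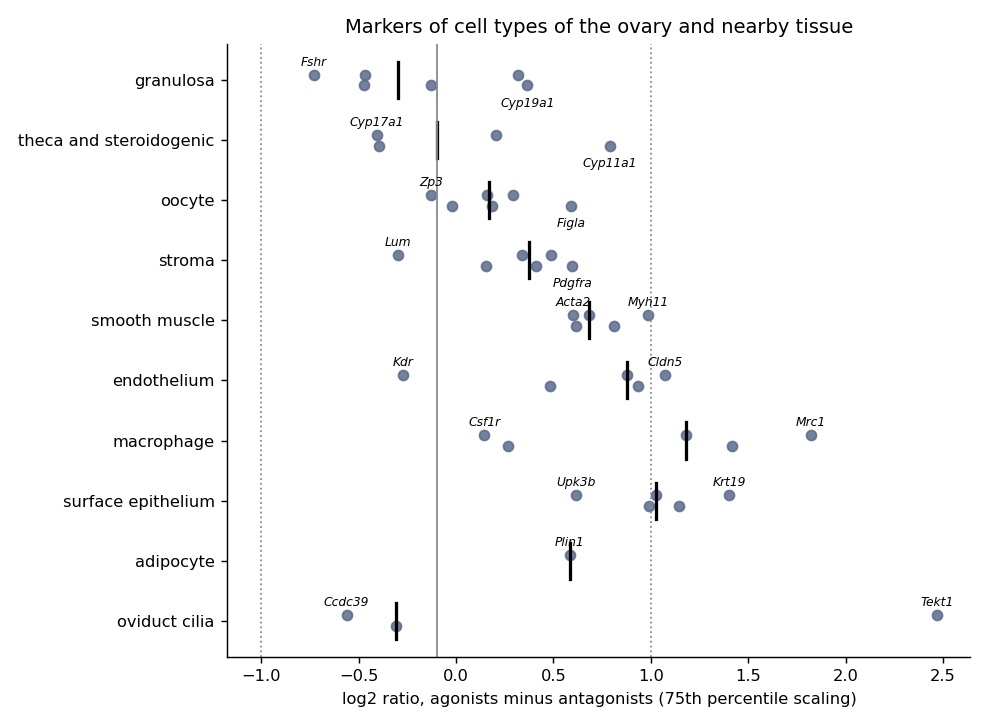
Log2 ratios of cell type markers that were well above background on both arrays, by cell type (y axis), each gene by its brightest probe; black bars are list medians, the grey line is the median of all probes (-0.10) and dotted lines mark 2-fold. Macrophage (1.18) and surface epithelium (1.03) lists have the highest medians, and granulosa (-0.30) and oviduct cilia (-0.31) lists the lowest. The cilia list shows 3 genes, each with a signal near background on at least 1 array.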

How the data were processed

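RNA of cultured mouse ovaries, 1 array per group, was measured with Agilent single-colour arrays. The authors deposited linear spot intensities from Agilent Feature Extraction 10.10.1.1 (protocol GE1_1010_Sep10) after its background subtraction, without scaling between arrays. They also deposited summary intensities, which equal those values times a constant per array. Control spots and outlier spots were removed, log2 of the intensity was reduced by the 75th percentile of the array, and spots were averaged. To count as above background, a probe needed the software's mark on more than 50% of its spots. Errors are the SD between 10 spots or the software's error of 1 spot. A probe above background on 1 array only was given a bound against the lowest signal above background. The exception was Bmp8b, whose signal on the other array was higher than that level. Groups came from the sample labels. Probes were named through RefSeq transcripts of GRCm38.p6, used for names and promoter sequences only, and 27235 probes were paired.

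The genes and lists were chosen with earlier results of these data known. Named are all 10 genes, in each pathway list genes past 2-fold and the 2 with the largest absolute ratios, and in each marker list the highest and lowest. Ltbp genes, Nog, Chrd, Chrdl1, Gdf5, Smad1, Smad6, Tgfbi, Tsc22d1, Foxl2, Hsd3b1, Des, Tek, Tgif1, Klf10, Cdkn2b, Id1, Id2 and Id3 were added after their values were seen. One gene of the TGF-beta target list is not reported here and entered none of the list's values. Alternatives were other scalings (none, median, probes above background on both arrays, quantile, loess with span 0.3, spike-in), the authors' summary values, normexp (offset 50), other spot summaries and other filters on dim probes. Python 3.11.15, numpy 2.4.6, pandas 2.3.3, statsmodels 0.14.6, matplotlib 3.10.9, R 4.3.3 and limma 3.58.1 were used, and the calculation was tested on simulated data. The number of arrays limits the precision.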

Additional observations from a re-analysis of the deposited data

How the results depend on the processing

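No paired analysis was possible because each group has 1 array. Over the alternatives, 361 of 468 values were classed as about the same and 107 as moved. For ratios, moved means a change by more than their spread. The 468 values also hold counts of probes past a fold, which have no such spread. For the ratios of the member probes, 96 of 130 were classed as about the same and 34 as moved. Signs of small member ratios did change. Of 11 settings, including the one used, the ratio was above 0 in 10 for Bmp2, 2 for Bmp4, 5 for Bmpr1a and 6 for Bmpr2. The dimmer Tgfbr1 probe was above 0 in 10. List medians moved without scaling and under spike-in scaling, in that order: the 10 genes to 0.45 and 0.48, other ligands to 0.14 and 0.17, other receptors to 0.48 and 0.52, latency genes to 0.62 and 0.66, extracellular inhibitors to 0.37 and 0.40, SMADs to 0.088 and 0.12, intracellular inhibitors to 0.25 and 0.28, TGF-beta targets to 0.43 and 0.46 and BMP targets to 0.39 and 0.43. These settings shift all probes alike, to medians of 0.14 and 0.18. Member probes at least 1.5-fold higher numbered 4 without scaling, 6 with spike-in scaling, and 1 with median scaling, with normexp and among bright probes only. At least 2-fold higher was 1, the dimmer Tgfbr2 probe, without scaling, with spike-in scaling and in the authors' values. Over all probes, those at least 1.5-fold higher went from 2299 to 4301 without scaling, 4720 with spike-ins, 1183 with normexp, 6801 with no filter and 598 among bright probes. Those at least 1.5-fold lower went from 1620 to 502, 434, 637, 5223 and 415 in the same order, and 1005 in the authors' values. Those at least 2-fold higher went from 890 to 1499, 1625, 410, 3339 and 231, and those 2-fold lower from 233 to 98, 88, 60, 2333 and 31, and 149 in the authors' values. The share of higher among 2-fold differences was 79.3%, and ran from 73.5% with median scaling to 94.9% with spike-ins. Apart from the shift common to all probes and the smaller numbers of probes under a filter, the cause was not tested. Probes not well above background on either array, such as the second Bmp4 probe, have no usable ratio.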

Other observations

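Probes of the same gene did not always give the same ratio. For Chrdl1, a BMP antagonist, the brightest of 3 probes had a log2 ratio of 0.29 with an error of 0.25, a second was at least 1.81-fold higher on the agonist array, where alone it was well above background, and the third was below background on both. For Gdf5 the 2 probes gave 0.44 and -0.12. Among the markers, Kdr gave -0.27 at its brightest probe, read at 1 spot, and 0.38 at a probe with 10 spots, and Tekt1 gave 2.47 and 0.54. Foxl2 gave 0.32 and -0.37, and Csf1r 0.15, -0.09 and 0.04. The 3 member genes with 2 measured probes, Tgfb2, Tgfbr1 and Tgfbr2, differed between their probes by 0.08, 0.01 and 0.27. Each difference lay within the combined software error of the single spots. That error is wider than the SD measured between spots, which had a median of 0.07 over the probes with 10 spots.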
